A study of Homo sapiens with 7 samples.

Results

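The collagen genes expressed in human stem cell cardiomyocytes were compared between cultures given a scrambled antisense oligonucleotide (ASO) and cultures given an ASO against MYH7B. They were taken as the rows whose gene name is COL, a type number, A and a chain number, which gave 44 of the 60234 genes in the deposited expression table. All libraries came from WTC-11, an established human induced pluripotent stem cell line, so that 1 genetic background was studied. The cells were turned into cardiomyocytes with small molecules, matured for 35 days and exposed passively to an ASO at 2 uM, and poly-A RNA was sequenced after 96 h. An ASO is a short, chemically made strand that binds a chosen RNA by base pairing. Per the labels, 3 libraries received the scrambled ASO and 4 the MYH7B ASO. The labels do not say whether libraries came from separate cultures, so p-values measure the spread between these samples, which may be technical. For MYH7B ASO replicate 1 the deposited values were out of row register, and it was left out of the main comparison of 3 against 3 libraries. Its values after reordering are given as those of replicate 1 where they bear on a result.

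Levels are in TPM, the length-scaled share of a gene among the transcripts of a library, which keeps no record of depth. The 6 libraries of the main comparison had 15290 to 16207 genes at 1 TPM or more and 27.4% to 33.6% of their TPM in mitochondrially encoded genes. Replicate 1 stood apart, with 14823 genes and 17.2%. The targeted gene, MYH7B, was at 23.0, 36.5 and 25.1 TPM in the scrambled libraries, at 9.30, 5.65 and 6.31 TPM in MYH7B ASO replicates 2 to 4 and at 1.29 TPM in replicate 1. Its log2 fold change was -1.85 (SE 0.24, limma adjusted p = 0.011).

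Collagens are secreted proteins of 3 chains wound into a helix, in which glycine opens each Gly-X-Y triplet of amino acids. Fibrillar types form the tensile fibrils of the matrix, type IV forms the network of basement membranes, type VI forms beaded filaments close to cells, and FACIT types bind along fibrils. In heart muscle most fibrillar collagen is made by fibroblasts, and type IV surrounds each cardiomyocyte. The triplet is visible in the coding sequence of every collagen, and it is shown for the 5 genes that passed the test between the ASO groups. Each line gives 54 coding bases from the longest GENCODE 29 coding sequence, 5′ to 3′, with the codon of the glycine that opens each triplet in capitals.
COL1A2, codons 91 to 108: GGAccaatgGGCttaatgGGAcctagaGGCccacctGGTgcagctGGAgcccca
COL27A1, codons 688 to 705: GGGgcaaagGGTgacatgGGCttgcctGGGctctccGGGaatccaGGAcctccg
COL6A3, codons 2168 to 2185: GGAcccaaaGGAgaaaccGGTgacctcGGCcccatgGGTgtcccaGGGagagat
COL12A1, codons 2803 to 2820: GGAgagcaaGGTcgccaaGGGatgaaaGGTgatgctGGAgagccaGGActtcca
COL8A1, codons 354 to 371: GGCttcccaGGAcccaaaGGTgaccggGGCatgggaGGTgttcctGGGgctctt

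The longest unbroken run of glycine triplets sets the fibrillar genes apart, while most of the other classes overlap. It was 216 to 343 triplets in the 11 fibrillar genes, 38 to 66 in the 6 type IV genes, 37 to 87 in the 5 type VI genes, 32 to 113 in the 10 FACIT genes and 59 to 60 in the 3 short-chain genes. It was 43 to 55 in the 4 transmembrane genes, 75 in COL7A1, 30 in both multiplexin genes and 23 to 28 in the 2 unclassed genes. In the 5 genes that passed, the longest run was 339 triplets in COL1A2, 217 in COL27A1, 60 in COL8A1, 45 in COL6A3 and 32 in COL12A1. Runs of at least 5 triplets made up 77.7% of the codons of COL1A2, 58.9% of COL8A1, 53.2% of COL27A1, 10.4% of COL6A3 and 8.13% of COL12A1.

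Tests were two-sided and made with limma on log2(TPM + 1) for the 15988 genes that averaged 1 TPM or more in these 6 libraries, and a gene was called at a Benjamini-Hochberg adjusted p under 0.05 over all of them. Fold changes on this scale understate the change of low genes. This filter kept 32 of the 44 collagen genes, 31 of which were at 1 TPM or more in both group means. The exception was COL9A2, at 1.09 TPM in the scrambled group and 0.949 TPM in the MYH7B ASO group.

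Collagen RNA was dominated by the chains of types I and III. The summed collagen level was 4148, 4543 and 7094 TPM in the scrambled libraries and 3231, 3480 and 2405 TPM in MYH7B ASO replicates 2 to 4, and replicate 1 was inside the scrambled range at 5930 TPM. COL1A1, COL3A1 and COL1A2 together made up 66.7%, 64.1% and 69.2% of that sum in the scrambled libraries, and 50.6%, 56.6% and 52.3% in replicates 2 to 4. Replicate 1 had 63.7%, close to the scrambled libraries. Of the 32 tested genes, 9 had a mean of at least 100 TPM, 12 lay between 10 and 100 TPM and 11 between 1 and 10 TPM.

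**Figure D1:**
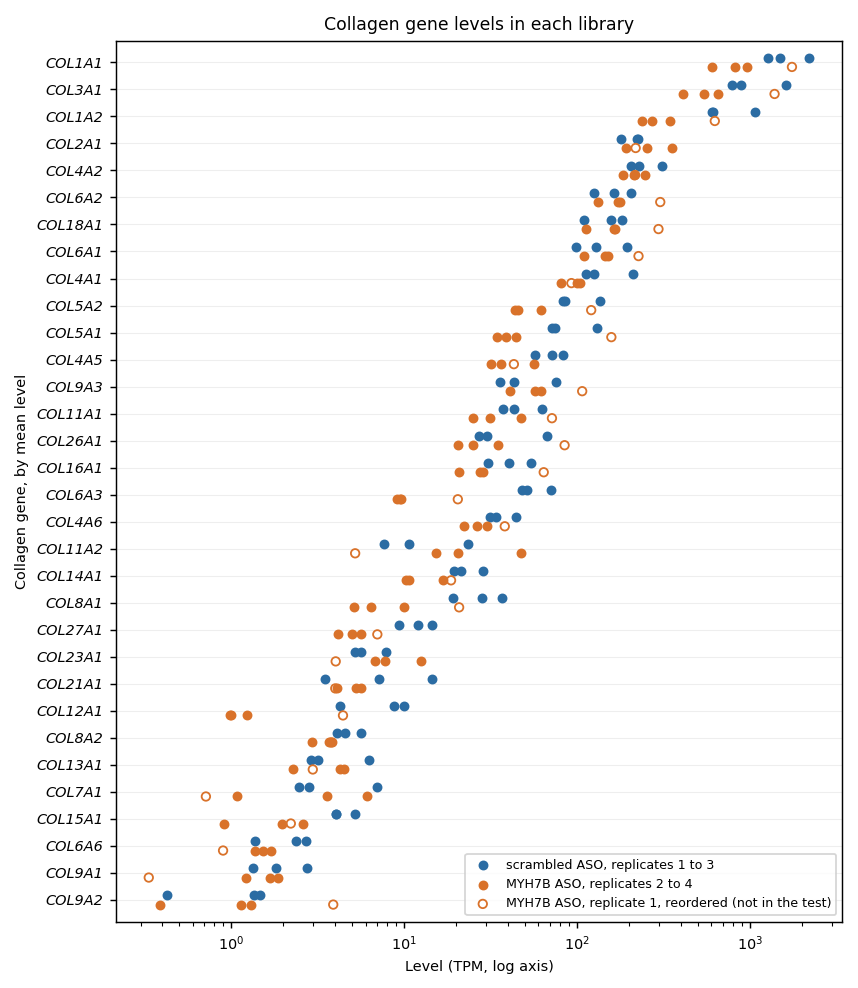
TPM (log axis) of the tested collagen genes in each library of the scrambled ASO and MYH7B ASO groups, with the reordered MYH7B ASO replicate 1 marked apart. The 3 MYH7B ASO points of COL6A3 lie at 9.11 to 9.63 TPM, below the 48.4 to 71.4 TPM of the scrambled libraries, whereas the points of COL6A1 and COL6A2 overlap between groups.

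Of the 32 tested collagen genes, 5 fell with the MYH7B ASO and 0 rose. Those that fell were COL6A3, COL12A1, COL8A1, COL1A2 and COL27A1, by 1.11 to 2.46 on the log2 scale. Among all tested genes, 1.48% were called lower (236 genes) and 0.181% higher (29 genes), against 5 and 0 of the 32 collagens. With quantile normalization the split over all genes was 202 lower and 55 higher. An unadjusted p under 0.05 was reached by 15 collagens on the lower side and 0 on the higher side, where 10.6% and 4.67% of all tested genes reached it. In 16 collagen genes all 3 MYH7B ASO libraries were below all 3 scrambled libraries, and in 0 genes above, against 14.1% and 7.11% of all tested genes. The estimate was below 0 for 28 of the 32 collagens and for 54.8% of all tested genes. The median log2 fold change was -0.47 over the collagens and -0.04 over all tested genes.

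The count of calls fell whichever library was left out. It was 1 without scrambled replicate 1, MYH7B ASO replicate 2 or MYH7B ASO replicate 4, where 0.536%, 0.6% and 0.291% of all tested genes were called lower. It was 2 without scrambled replicate 3 or MYH7B ASO replicate 3 (0.659% and 0.604%) and 3 without scrambled replicate 2 (132 of 15931 genes). Scrambled replicate 3 was the highest scrambled library for 23 of the 32 collagens and for 45.4% of all tested genes. Without it COL1A2 and COL6A3 were called. The estimate was then below 0 for 22 of 31 collagens, with a collagen median of -0.33, against 0.001 over all tested genes. With the reordered replicate 1 added, 1 of 32 collagens was called, COL6A3 (-2.20, limma adjusted p = 0.0107). In that fit 0.967% of all tested genes were called lower. Estimates below 0 numbered 24 of 32, with a collagen median of -0.41, against -0.05 over all tested genes. A limma unadjusted p under 0.05 was reached by 9 collagens and by 2131 of 15822 genes. Of the 16 collagens with groups apart, some did not stay below the scrambled range in replicate 1. They were COL1A1, COL1A2, COL3A1, COL4A6, COL5A1, COL5A2, COL8A1, COL12A1 and COL16A1.

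**Figure D2:**
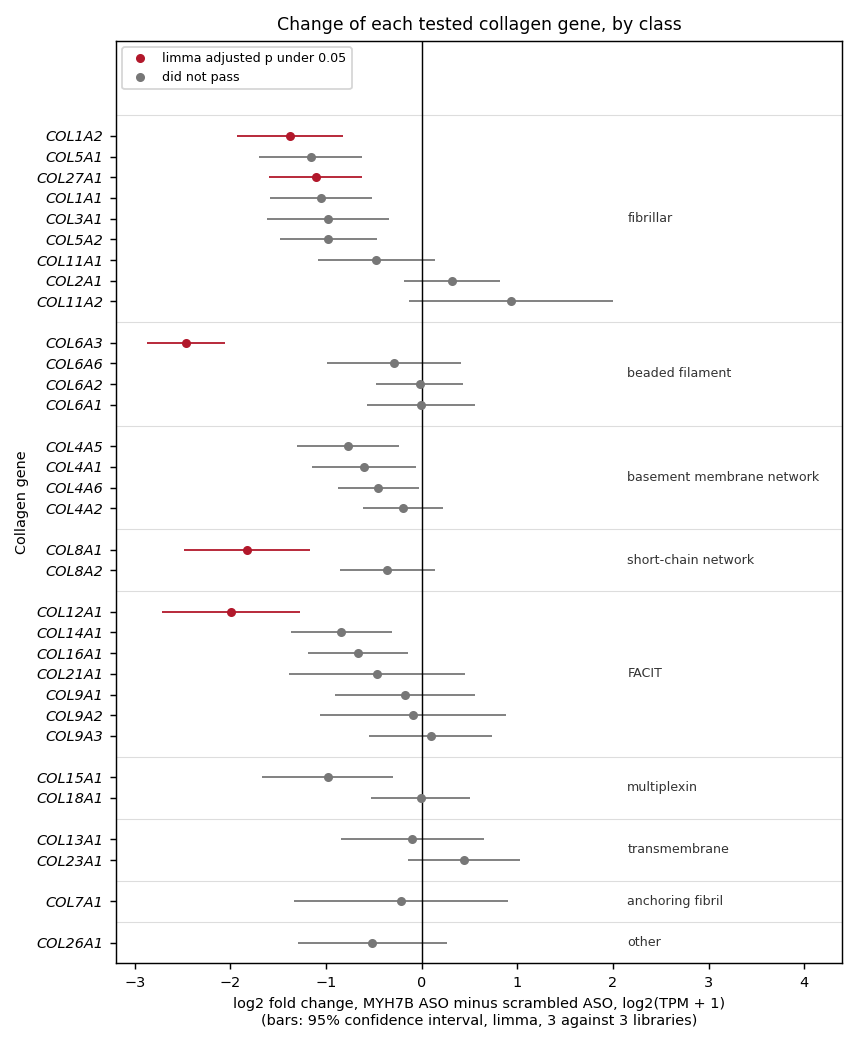
Log2 fold change of each of the 32 tested collagen genes, MYH7B ASO minus scrambled ASO on the log2(TPM + 1) scale, with 95% confidence intervals from limma over 3 against 3 libraries, grouped by class. The 5 genes with an adjusted p under 0.05 are all to the left of 0, between -2.46 and -1.11, and the highest estimate is that of COL11A2 at 0.93.

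Fibrillar collagens held 2 of the 5 calls, COL1A2 and COL27A1, where 1.48% of all tested genes were called lower. Of 9 tested fibrillar genes 7 had an estimate below 0, where 54.8% of all tested genes did. In 6 of the 9 the groups did not overlap, all with the MYH7B ASO libraries lower, against 14.1% of all tested genes. The class median was -0.98. COL1A2 encodes the second chain of type I collagen, the main fibril of the heart's matrix, and lies at chr7:94394561-94431232 (GRCh38, plus strand). It was at 603, 613 and 1079 TPM in the scrambled libraries and at 272, 348 and 238 TPM in MYH7B ASO replicates 2 to 4. The groups were apart, at 765 ± 272 and 286 ± 56.0 TPM (SD, n = 3 each). The log2 fold change was -1.38 (SE 0.24, limma adjusted p = 0.034), and replicate 1, at 629 TPM, was inside the scrambled range. Of the 6 fits that leave out 1 library, only that without scrambled replicate 3 called it. An antisense gene, AC002074.1, overlaps COL1A2 and reached at most 1.39 TPM, far below it.

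COL27A1 encodes a fibrillar chain known from cartilage and lies at chr9:114155560-114312511 (plus strand). It was at 9.31, 12.1 and 14.5 TPM in the scrambled libraries and at 5.67, 5.02 and 4.15 TPM in replicates 2 to 4. The log2 fold change was -1.11 (SE 0.21, limma adjusted p = 0.044). Replicate 1, at 7.02 TPM, lay between the groups. Leaving out any 1 of the 6 libraries raised its adjusted p above the threshold, to between 0.0556 and 0.177.

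COL1A1, COL3A1, COL5A1 and COL5A2 were lower in every MYH7B ASO library of the main comparison but did not pass. COL1A1, the first chain of type I, was at 1279, 1506 and 2215 TPM against 818, 962 and 609 TPM, with a log2 fold change of -1.05 (limma adjusted p = 0.073). COL3A1, which forms mixed fibrils with type I, was at 887, 792 and 1618 TPM against 544, 660 and 410 TPM (-0.98, limma adjusted p = 0.148). Neither gene kept its groups apart with replicate 1, which had 1757 TPM of COL1A1 and 1394 TPM of COL3A1. The type V chains, which set fibril diameter from inside the fibril, gave -1.16 for COL5A1 (limma adjusted p = 0.055) and -0.98 for COL5A2 (limma adjusted p = 0.081). COL5A1 was at 74.7, 72.04 and 130 TPM against 39.1, 44.7 and 34.5 TPM. Its replicate 1 value of 158.5 TPM was above every scrambled library. Both COL1A1 and COL5A1 passed after median-ratio rescaling (limma adjusted p = 0.0456 and 0.0392) and after quantile normalization (0.0416 and 0.0307). COL5A2 passed after quantile normalization (limma adjusted p = 0.0493), and all 3 passed among genes of at least 5 mean TPM (0.0391, 0.0273 and 0.0471 for COL1A1, COL5A1 and COL5A2).

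COL2A1, COL11A1 and COL11A2, chains best known from cartilage fibrils, were also expressed, and their groups overlapped. COL2A1 was at 181, 226 and 222 TPM against 356, 256 and 192 TPM, with a log2 fold change of 0.31 (95% confidence interval -0.19 to 0.81). COL11A1 had an estimate of -0.47 (interval -1.08 to 0.14). COL11A2 had the highest estimate of all tested collagens at 0.93, with an interval from -0.14 to 2.00, and ranged from 7.67 to 23.4 TPM in the scrambled libraries and from 15.4 to 47.5 TPM in replicates 2 to 4. The chondrocyte markers summed to 6.74 to 12.7 TPM in the scrambled and 3.25 to 4.94 TPM in the MYH7B ASO libraries, and 5 of its 7 genes, ACAN among them, were under 1 TPM in all 6, while HAPLN1, the most abundant, gave -1.44 (limma adjusted p = 0.096). COL5A3 and COL24A1, the remaining fibrillar genes, were under 0.2 TPM in every library and were not tested.

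Among types with several tested chains, type VI had the widest gap between the estimates of its chains. COL6A3 fell, while COL6A1 and COL6A2, which join it in a filament unit of 3 chains, had estimates near 0. COL6A3 lies at chr2:237324003-237414375 (minus strand) and was at 48.4, 51.7 and 71.4 TPM in the scrambled libraries and at 9.63, 9.45 and 9.11 TPM in replicates 2 to 4. The means were 57.1 ± 12.4 and 9.39 ± 0.264 TPM (SD, n = 3 each). The log2 fold change was -2.46 (SE 0.18, limma adjusted p = 0.0016). Replicate 1, at 20.5 TPM, was higher than replicates 2 to 4 and lower than every scrambled library. COL6A3 was called in each of the 6 fits that leave out 1 library (adjusted p = 0.0062 to 0.0148).

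COL6A1 was at 98.4, 129 and 195 TPM in the scrambled libraries and at 151, 145 and 111 TPM in replicates 2 to 4. COL6A2 was at 126, 164 and 207 TPM against 173, 177 and 133 TPM. Both sets overlapped. The log2 fold changes were -0.01 (95% confidence interval -0.58 to 0.55) for COL6A1 and -0.02 (interval -0.48 to 0.44) for COL6A2, and both turned positive under several alternatives. These neighbours share a strand on chromosome 21, at 45981737 to 46005050 and 46098097 to 46132849. COL6A6 was low, at 1.38, 2.71 and 2.37 TPM against 1.53, 1.71 and 1.37 TPM (-0.29), and COL6A5, under 0.06 TPM throughout, was not tested.

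Ratios of chains within a library do not depend on the total to which TPM is scaled, and 10 were compared with two-sided exact permutation tests. The smallest p that 3 against 3 libraries allow is 0.1, which 6 of the 10 reached, each with an adjusted p of 0.167 over the 10. The log2 ratio of COL6A3 to COL6A1 went from -1.27 ± 0.22 in the scrambled libraries to -3.84 ± 0.20 in MYH7B ASO replicates 2 to 4 (SD, n = 3 each, exact p = 0.1), a difference of -2.57. With replicate 1 the difference was -2.48 (exact p = 0.0286, adjusted 0.0714), the smallest p possible with 3 against 4. The ratio of COL6A3 to COL6A2 gave -2.56 with the same p values, whereas COL6A1 to COL6A2 gave 0.01 (exact p = 1).

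A further 3 pairs that share a molecule had ratios that did not overlap between the groups. COL1A1 to COL1A2 was higher by 0.33 with the MYH7B ASO, COL4A1 to COL4A2 was lower by 0.41, and COL8A1 to COL8A2 was lower by 1.52 (exact p = 0.1 each). With replicate 1 the first 2 stayed apart (exact p = 0.0286 each, adjusted 0.0714) and COL8A1 to COL8A2 did not (exact p = 0.0857). The ratio of COL2A1 to COL1A1, chains of different fibrils, was higher by 1.37 (exact p = 0.1), and overlapped with replicate 1 included (exact p = 0.114). The ratios of COL4A5 to COL4A6, COL5A1 to COL5A2 and COL11A1 to COL11A2 overlapped between groups, with exact p = 0.5, 0.2 and 0.2. No ratio passed 0.05 after adjustment. The pairs were chosen with earlier results of these data known, and several hold a called gene. The ratio tests are therefore not independent of the gene tests.

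**Figure D3:**
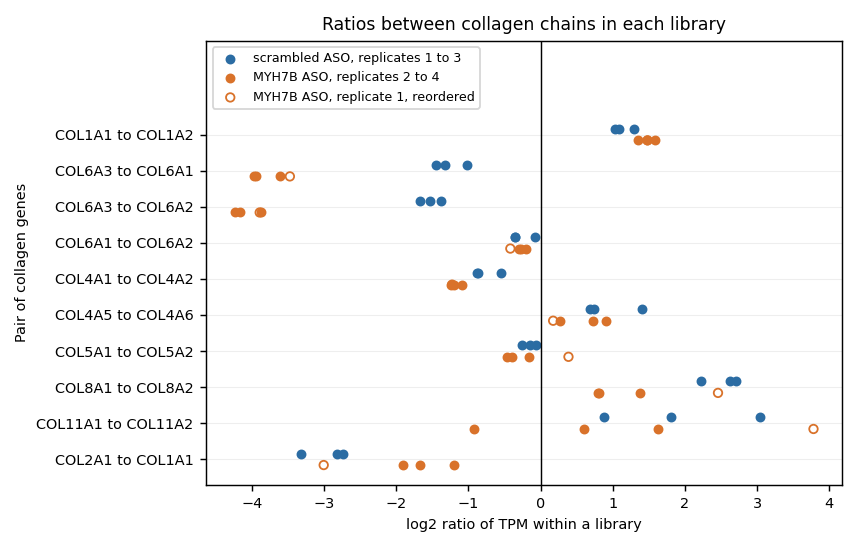
Log2 ratio of the TPM of paired collagen chains within each library, by ASO group, with MYH7B ASO replicate 1 (reordered) marked apart. COL6A3 to COL6A1 lies near -1.27 in the scrambled and near -3.84 in the MYH7B ASO libraries, while COL6A1 to COL6A2 is near -0.26 and -0.25.

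The basement membrane network had no call among its 4 tested genes. All 4 had estimates below 0, as did 54.8% of all tested genes. In 3 the groups were apart on the lower side, against 14.1% of all tested genes. COL4A1 and COL4A2 encode the chains of the common type IV network and stand head to head on chromosome 13. COL4A1 was at 113, 125 and 213 TPM against 104, 101 and 81.0 TPM (-0.60, limma adjusted p = 0.278). COL4A2 was at 206, 231 and 312 TPM against 247, 214 and 186 TPM, which overlap (-0.19, interval -0.61 to 0.22). COL4A5 and COL4A6, head to head on chromosome X and chains of a more restricted network, gave -0.77 (limma adjusted p = 0.169) and -0.46. COL4A3 and COL4A4, known from kidney basement membrane, were under 0.5 TPM in every library and were not tested.

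Short-chain collagens form open lattices, and in vessel walls type VIII is the main one. COL8A1, at chr3:99638475-99799226 (plus strand), fell from 28.3, 19.2 and 37.0 TPM in the scrambled libraries to 5.15, 10.04 and 6.43 TPM in replicates 2 to 4. The means were 28.2 ± 8.91 and 7.21 ± 2.54 TPM (SD, n = 3 each) and the log2 fold change was -1.83 (SE 0.29, limma adjusted p = 0.023). Replicate 1, at 20.9 TPM, was inside the scrambled range. In fits that leave out 1 library it was called in 2 of 6, without scrambled replicate 2 or MYH7B ASO replicate 3. COL8A2 was less abundant, at 4.58, 4.11 and 5.64 TPM against 2.94, 3.85 and 3.68 TPM (-0.36, limma adjusted p = 0.484). COL10A1, a marker of hypertrophic cartilage, was at 3.82 TPM in MYH7B ASO replicate 2 and under 0.1 TPM in the other 5 libraries, and was not tested.

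Of the FACIT genes, whose helices are interrupted, 1 of 7 tested fell, where 1.48% of all tested genes were called lower. COL12A1, at chr6:75084326-75206051 (minus strand), encodes the long chain of type XII, which decorates type I fibrils. It was at 8.73, 4.28 and 10.1 TPM in the scrambled libraries and at 1.24, 1.004 and 0.990 TPM in replicates 2 to 4, with a log2 fold change of -1.997 (SE 0.31, limma adjusted p = 0.023). The groups did not overlap, and replicate 1, at 4.45 TPM, lay inside the scrambled range. Only the fit without scrambled replicate 2 kept the call among the 6 that leave out a library. COL14A1, a related chain of type XIV, was at 19.6, 21.3 and 28.7 TPM against 10.7, 16.9 and 10.3 TPM (-0.84, limma adjusted p = 0.134). COL16A1 was also lower in every library of the main comparison, at 30.6, 40.7 and 54.5 TPM against 28.7, 27.5 and 20.8 TPM (-0.66, limma adjusted p = 0.220).

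The remaining FACIT genes overlapped between groups. COL21A1 had an estimate of -0.47, COL9A1 of -0.18, COL9A2 of -0.09 and COL9A3 of 0.10. Of the type IX chains COL9A3 was the most abundant, at 36.1, 43.3 and 76.2 TPM against 57.4, 62.0 and 40.9 TPM. COL19A1 and COL20A1 were at most 0.315 TPM in the 6 libraries, and COL22A1 was listed at 0 in all of them.

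None of the multiplexin, transmembrane, anchoring fibril and unclassed genes was called. COL18A1, a heparan sulfate bearing basement membrane collagen, was at 110, 158 and 182 TPM against 165, 166 and 113 TPM (-0.01, interval -0.53 to 0.50), an estimate that also turned positive under several alternatives. COL15A1, its relative, was at 5.19, 4.05 and 4.05 TPM against 2.61, 1.97 and 0.915 TPM (-0.98, limma adjusted p = 0.169). The transmembrane collagens, which stay on the cell surface, gave 0.45 for COL23A1 and -0.10 for COL13A1. COL7A1, the anchoring fibril chain of skin, gave -0.22, and COL26A1 gave -0.52. COL17A1, COL25A1 and COL28A1 stayed under 1 TPM in the 6 libraries and were not tested.

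**Figure D4:**
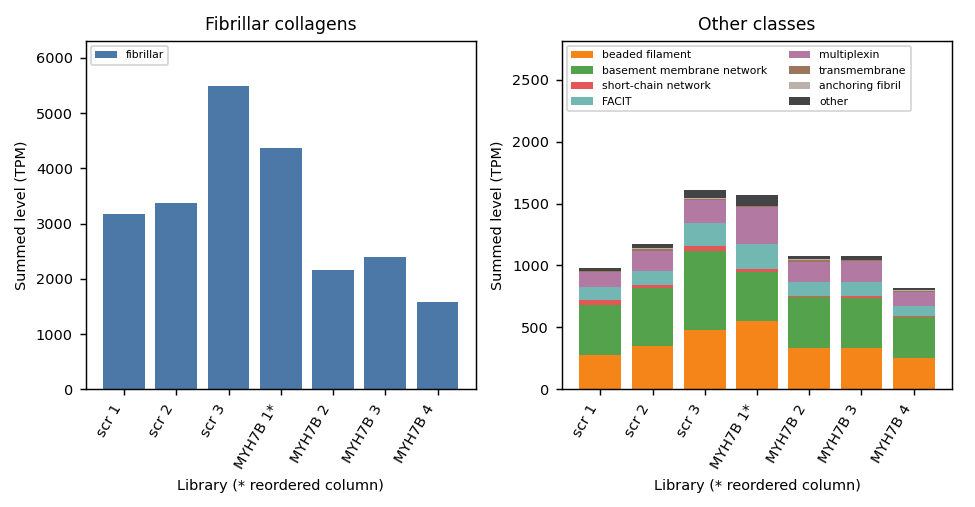
Summed TPM of each collagen class in each library (scr, scrambled ASO; MYH7B, MYH7B ASO; replicate 1 is the reordered library). Fibrillar sums are 3165 to 5486 TPM in the scrambled libraries and 1585 to 2401 TPM in MYH7B ASO replicates 2 to 4, while beaded filament sums overlap at 274 to 476 and 254 to 335 TPM.

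The authors' deposited table of the same comparison gives shrunken log2 fold changes and adjusted p-values, and its libraries are not stated. Of the collagens, 42 are listed in the authors' deposited table, 33 of them with an adjusted p, and 15 were lower and 0 higher at an adjusted p under 0.05. Over all its genes with an adjusted p, 5.69% were lower and 3.02% higher. For COL6A3 the authors' deposited table gives -2.32, for COL12A1 -2.03, for COL8A1 -1.48, for COL1A2 -1.16 and for COL27A1 -1.05. It also lists COL25A1 as lower, at -0.81, a gene left untested in the limma fit.

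Genes that fold, secrete, crosslink, bind, cut or sense collagen were read from 6 lists of 76 genes. Of 65 tested, 3 fell and 0 rose, where 1.48% and 0.181% of all tested genes were called lower and higher. The median log2 fold change was -0.21. The genes that fell were LUM and BGN, small proteoglycans that bind fibrils, and MMP16, a membrane-bound protease. LUM was at 20.2, 19.9 and 68.8 TPM against 5.49, 7.10 and 4.80 TPM (-2.22, SE 0.43, limma adjusted p = 0.049). BGN was at 25.4, 26.4 and 54.6 TPM against 9.63, 12.1 and 8.93 TPM (-1.62, SE 0.29, limma adjusted p = 0.035). MMP16 was at 3.51, 4.57 and 4.52 TPM against 0.892, 0.678 and 0.795 TPM (-1.53, SE 0.27, limma adjusted p = 0.034). With 1 library left out, LUM and BGN were called only without scrambled replicate 3, and MMP16 in 0 of 6 fits. In replicate 1 LUM, at 43.8 TPM, was inside the scrambled range, while BGN (14.3 TPM) and MMP16 (1.41 TPM) were below it. With replicate 1 added, the limma adjusted p was 0.391 for LUM, 0.0478 for BGN and 0.0501 for MMP16.

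The 18 biosynthesis and folding genes had 0 calls and a median of -0.16, and the 9 secretion genes 0 calls and a median of -0.13. The 12 processing and crosslinking genes had 0 calls and a median of -0.25. Among these LOX, which oxidizes lysines for crosslinking, was at 35.0, 29.2 and 58.3 TPM against 13.5, 20.7 and 14.1 TPM (-1.26, limma adjusted p = 0.071). LOX was at 50.9 TPM in replicate 1, inside the scrambled range. LOXL4, of the same list, went the other way with groups that overlapped (0.89, limma adjusted p = 0.314). Of 7 tested proteoglycans 6 had groups that did not overlap, with the MYH7B ASO lower, where 14.1% of all tested genes did, and the median was -0.95. The 8 receptors had 0 calls, 6 non-overlapping groups on the lower side (again against 14.1%) and a median of -0.80. ITGA1, a collagen-binding integrin chain, was at 26.0, 31.9 and 34.1 TPM against 5.70, 15.9 and 9.62 TPM (-1.57, limma adjusted p = 0.051). The 11 tested degradation genes had 1 call, MMP16, and a median of -0.17. In 2 of them the groups were apart on the lower side and in 2 on the higher side, against 14.1% and 7.11% of all tested genes. MMP15 was at 63.0, 83.6 and 69.8 TPM against 189, 119 and 112 TPM (0.92, limma adjusted p = 0.087). LOX, LOXL4, ITGA1 and MMP15 were named after their values were seen.

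Marker genes of the cell types that such cultures could hold were read beside the collagens, and they did not all move one way. Of 40 tested, 2 fell and 0 rose, where 1.48% and 0.181% of all tested genes were called lower and higher. In bulk RNA, fewer cells of a type and less RNA per cell cannot be told apart. Cardiomyocyte markers summed to 9751 to 10877 TPM in the scrambled libraries and 8280 to 10540 TPM in replicates 2 to 4, with 0 of 10 called. Single markers were less even than the sum, and their median log2 fold change was -0.36. Of the 10 estimates 7 were below 0, where 54.8% of all tested genes were. The largest falls were those of MYH7 (-1.27, limma adjusted p = 0.148, groups overlapping) and RYR2 (-1.03, limma adjusted p = 0.054). The highest estimate was that of TNNI1 (0.42, limma adjusted p = 0.404). MYH7, RYR2 and TNNI1 were named after their values were seen. Groups were apart on the lower side in 4 of the 10 and on the higher side in 1, against 14.1% and 7.11% of all tested genes. The most abundant of them, MYL7, an atrial myosin light chain, was at 4784, 4993 and 5837 TPM against 4430, 4444 and 3601 TPM (-0.33, limma adjusted p = 0.296). The 10 fibroblast markers, chosen without collagens, summed to 213 to 453 TPM and 167 to 208 TPM, which did not overlap, and replicate 1 was at 492 TPM. Of the 10 only LUM was called, 5 had groups apart on the lower side and 2 on the higher side, PDGFRA (19.8, 27.8 and 23.5 against 41.1, 32.9 and 34.8 TPM) and TCF21 (7.40, 7.53 and 10.3 against 12.1, 18.4 and 12.8 TPM). The shares of all tested genes apart were again 14.1% on the lower and 7.11% on the higher side. Apart on the lower side were LUM, DCN (-1.69), FAP (-1.55), DDR2 (-0.88) and PDGFRB (-0.72). Of the 10 fibroblast estimates 8 were below 0, where 54.8% of all tested genes were, and their median was -0.67. PDGFRA, TCF21, DCN, FAP, DDR2 and PDGFRB were named after their values were seen. FBLN1, the most abundant of this list, overlapped between groups (-0.14).

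The 6 smooth muscle markers summed to 992 to 1400 TPM and 594 to 791 TPM, and MYH11, smooth muscle myosin, fell from 58.6, 74.2 and 77.6 TPM to 7.64, 15.6 and 15.4 TPM (-2.41, SE 0.27, limma adjusted p = 0.006). ACTA2, smooth muscle actin and the most abundant of the list, was at 509, 498 and 645 TPM against 206, 351 and 339 TPM (-0.91, limma adjusted p = 0.091). The list did not move as one: TAGLN gave -1.24 and RGS5 -0.29, while CNN1 and SMTN gave 0.24 and 0.07, and none of these 4 was called. TEK, TAGLN, RGS5, CNN1 and SMTN were named after their values were seen. Epicardial markers summed to 517 to 714 TPM and 679 to 770 TPM, with 0 of 6 called, and KRT19, the most abundant, gave 0.31. Endothelial markers summed to 17.9 to 22.3 TPM and 12.1 to 18.2 TPM, endoderm markers to 4.09 to 6.45 TPM and 10.5 to 15.2 TPM, and pluripotency markers to 4.42 to 7.22 TPM and 2.83 to 6.05 TPM. KDR, APOA1 and POU5F1 led these 3 lists, with estimates of 0.10, 1.06 and -0.22, none of them called. APOA1 was at 4.03, 6.39 and 5.57 TPM against 14.8, 12.6 and 9.37 TPM. It thus made up most of the endoderm sum in each library. Of the 6 endoderm genes, 4 were under 1 TPM in all 6 libraries, so the sum mainly follows APOA1. TEK, the other tested endothelial marker, was at 11.4, 8.08 and 12.2 TPM against 3.23, 6.86 and 3.73 TPM, groups that did not overlap (-1.08, limma adjusted p = 0.111). VWF, ERG, AFP, APOB, NANOG and SOX2 were under 1 TPM in all 6 libraries. The part of these cell types in the collagen values was not tested.

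Promoter sequence was available from RefSeq (GRCh38.p14) for 32 of the 44 genes, in 44 windows of 250 bases before the start site and 50 after. The upstream 250 bases are shown for COL12A1 and COL27A1, called genes in which they overlap no annotated exon. Capitals mark GGGCGG, the GC box, and GGAATG, the core of the site that TEAD transcription factors bind, each read on both strands.
COL12A1, chr6:75206054-75206303, minus strand: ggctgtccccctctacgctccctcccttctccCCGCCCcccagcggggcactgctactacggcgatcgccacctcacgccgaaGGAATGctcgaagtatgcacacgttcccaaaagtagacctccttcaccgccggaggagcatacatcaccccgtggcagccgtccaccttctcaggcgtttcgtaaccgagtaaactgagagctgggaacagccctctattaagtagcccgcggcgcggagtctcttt
COL27A1, chr9:114155287-114155536, plus strand: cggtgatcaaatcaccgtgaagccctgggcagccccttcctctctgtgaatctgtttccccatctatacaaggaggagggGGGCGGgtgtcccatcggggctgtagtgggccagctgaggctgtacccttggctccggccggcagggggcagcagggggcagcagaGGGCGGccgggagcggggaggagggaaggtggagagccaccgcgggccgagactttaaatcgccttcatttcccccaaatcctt

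The GC box was in 24 of the 44 collagen windows and in 45% of all 35116 windows, and the GGAATG core in 3 and 14%. Those 3 windows belong to COL10A1, COL11A2 and COL12A1. CCAAT was in 14 collagen windows and in 34.6% of all, and TATAAA in 8 and 11.5%. Such matches describe letters in the windows and are not binding sites.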

How the data were processed

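Poly-A RNA libraries of WTC-11 cardiomyocytes were analysed, 3 with a scrambled ASO and 4 with a MYH7B ASO. The authors deposited TPM per gene, each column summing to 1000000, so depth is unknown and replicate spread is the only error. The submitters' processing notes name GRCh38.p13 and DESeq2. The aligner, quantifier and strand setting are not given in the sources used here. The authors' deposited comparison table holds p-values before and after adjustment, a score from the test, shrunken log2 fold changes and their errors, and a mean normalized count (a signal over its libraries).

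The column of MYH7B ASO replicate 1 had 58721 values in another order than the gene names. Its correlation with the other libraries was 0.408 as deposited, 0.955 when given the sorted GENCODE 29 identifiers and 0.416 with that order moved by 1. It was used only as an alternative and beside other values.

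limma 3.58.1 in R 4.3.3 was run with an intensity trend on log2(TPM + 1), genes of at least 1 mean TPM, no covariate and Benjamini-Hochberg adjustment over all genes. Simulated data with the real means and spread were tested first, with noise drawn independently for each gene. Of 50 genes each, 58% were called at a log2 change of -2, 24% at -1, 20% at 1 and 66% at 2. Among the unchanged genes 6 were called. Shifts shared by many genes of a library were not simulated, so these shares need not hold for the real data. Ratios were tested by exact permutation in Python 3.11.15. Coordinates come from GENCODE 29 (GRCh38), matched by gene identifier. The alternatives were the pseudocount, filter, scaling, trend, replicate block, replicate 1 and each library left out.

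The collagen members, gene lists and ratios were chosen with earlier results of these data known. Named genes were MYH7B, every called member, the 8 most abundant members, the 5 largest rises and falls, tested members of a type with a call, and called genes and leading markers of the lists. Other members are named so that every member is accounted for.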

Additional observations from a re-analysis of the deposited data

Results flagged for a closer look

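Among 33 collagen measures examined over the 4 MYH7B ASO libraries, 3 had a library far from the others, and all 3 were in replicate 1, whose column was reordered. Chance gives about 1 such measure in 20. COL12A1 was at 4.45 TPM there and at 0.99 to 1.24 TPM in replicates 2 to 4. COL6A3 was at 20.5 TPM against 9.11 to 9.63 TPM. COL5A1 was at 158.5 TPM against 34.5 to 44.7 TPM.

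Replicate 1, which the main comparison did not use, was above every scrambled library for 9 of the 32 tested collagens, COL5A1, COL6A1, COL6A2, COL9A2, COL9A3, COL11A1, COL16A1, COL18A1 and COL26A1, and below every scrambled library for 12. It also had the lowest MYH7B level, at 1.29 TPM, and the lowest mitochondrial share of the 7 libraries, at 17.2%. The part of either in these values was not tested.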

How the results depend on the processing

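The 5 collagen calls became 1 without the filter on low values (0.115% of all genes called lower), 8 with quantile normalization (1.26%), 2 without the intensity trend (0.838%), 1 with the reordered replicate 1 added, and 1 to 3 when 1 library was left out. They were 4 to 7 under the other scalings, pseudocounts and filter (1.22% to 2.62% of all genes), and the filter of 5 mean TPM left 24 collagens tested. COL6A3 was called in all of these settings. The 3 calls in the collagen machinery became 1 with a pseudocount of 5, 0 without the filter and 1 without the trend. They were 0 to 2 with a library left out and 2 with replicate 1 added, BGN and ITGA1. The 265 calls over all genes became 40 without the filter, 150 without the trend, 170 with replicate 1 and 53 to 149 with a library left out.

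Replicate numbers shared by the groups gave 2 pairs. No label ties a number to a culture. Deviations of same-numbered libraries correlated at 0.0759 and 0.110 by title and at -0.0729 and -0.0387 by description. Differently numbered pairs ranged from -0.0729 to 0.0412 by title and from -0.0693 to 0.110 by description. By title, both same-numbered pairs were thus above every other pair. Whether libraries were paired was not tested. With the replicate block in limma, by title or description number, or by title with replicate 1 added, 0 collagens, 0 machinery genes and 0 of all genes were called. MYH7B itself was thus not called either, and the lowest limma adjusted p of any gene was 0.331, 0.720 and 0.108. Such a block compares the groups only through libraries that share a number. These fits therefore had little power, and their lack of calls does not decide whether a gene changed. At an unadjusted p under 0.05 these fits had 13, 10 and 7 collagens and 1718, 1096 and 1773 genes. COL6A3 then had limma adjusted p = 0.331, 0.720 and 0.178, while its estimate stayed between -2.59 and -2.09 over all alternatives.

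Estimates near 0 changed sign. COL18A1 became 0.0444 with median-ratio rescaling, 0.0139 without mitochondrial genes, 0.243 with replicate 1 and 0.451 with its block; COL6A1 became 0.0448, 0.0144, 0.177 and 0.333, and COL6A2 0.0342, 0.00368, 0.208 and 0.372. With the description block COL2A1 became -0.0157 and COL9A3 -0.186. With 1 library left out COL18A1 ranged from -0.219 to 0.171, COL6A1 from -0.240 to 0.251, COL6A2 from -0.204 to 0.150 and COL9A3 from -0.124 to 0.405. The causes were not tested. Depth is unknown, which limits the 11 collagens under 10 TPM most.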

Other observations

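Collagen genes differ widely in genomic span, and long genes had lower estimates in these libraries across the transcriptome. The 18 tested collagens that span at least 100 kb had a median log2 fold change of -0.56, and the 14 shorter ones had -0.20. Over all tested genes with a span the medians were -0.31 for 2813 genes of at least 100 kb and 0.00 for shorter genes. Spearman's rho between span and log2 fold change was -0.24 across the 32 collagens and -0.31 across 15852 genes, which come from the same 6 libraries and are not independent replicates. The 5 collagens that fell spanned 36.7 kb (COL1A2) to 161 kb (COL8A1). The part of gene span in the collagen values was not tested.

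Collagen genes that stand next to each other did not all have like estimates. COL3A1 and COL5A2, tail to tail on chromosome 2, both gave -0.98, and COL6A1 and COL6A2, on 1 strand, gave -0.01 and -0.02. COL4A1 and COL4A2, head to head, gave -0.60 and -0.19.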
